A study of Mus musculus with 6 samples.

Results

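The genes described here were the transcripts that were low on a single array, that of knockout replicate 2, in a study of total brain from mice lacking the neural cell adhesion molecule NCAM. They were chosen from the deposited signals. A probe set with 1 gene symbol was taken when its lowest signal on the other 5 arrays was at least 100 and its signal on knockout replicate 2 was at most 0.6 times that lowest signal, and symbols starting with Kcn, Cacn, Scn, Gri or Rp were left out. The choice gave 31 probe sets of 28 genes, out of 8251 genes with their own symbol on the array. Because the signal of knockout replicate 2 chose them, that array's low values are given as a description, without a test.

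The study set 3 knockout males, in which Ncam is deleted constitutively, against 3 wild-type males, all C57BL/6J. Replicate 3 of each group was aged 3 months and the remaining animals 2 months. Total brain RNA of each animal was hybridised to its own one-colour array, so a group has n = 3 animals, and their number limits the precision. The deletion is constitutive, so no comparison here separates development from the adult brain. The question of the study was how brain transcripts differ when NCAM is missing.

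The cerebellum is built from a small set of cell types. Granule cells, the most numerous neurons of the brain, receive mossy fibres and send parallel fibres to Purkinje cells, which are the output of the cerebellar cortex and inhibit the cerebellar nuclei. Bergmann glia are the radial astrocytes that surround Purkinje cell dendrites. Several genes are used almost entirely by these cells, so in a homogenate of the whole brain their signal depends on the cerebellar RNA that the sample holds. In such bulk samples fewer cells of a type and less RNA per cell cannot be told apart.

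The promoters of 5 of these genes are shown because they belong to the cell types that lead the result, granule cells (Gabra6, Neurod1), Purkinje cells (Slc1a6, Pcp2) and Bergmann glia (Gdf10). The sequences are from RefSeq (GRCm38.p6), run from 250 bases before to 50 bases after the annotated start, and lie at chr11:42321023-42321322 (Gabra6, minus strand), chr2:79456587-79456886 (Neurod1, minus strand), chr10:78780246-78780545 (Slc1a6, plus strand), chr8:3625498-3625797 (Pcp2, minus strand, the first of its 4 annotated starts) and chr14:33923337-33923636 (Gdf10, plus strand). Capitals mark matches on either strand to CANNTG (the E box, read by factors such as NEUROD1 and ATOH1), AGGTCA (a core read by nuclear receptors such as RORA, which Purkinje cells need) or TTGGC (a core read by NFI factors, which act in granule cell maturation).
Gabra6: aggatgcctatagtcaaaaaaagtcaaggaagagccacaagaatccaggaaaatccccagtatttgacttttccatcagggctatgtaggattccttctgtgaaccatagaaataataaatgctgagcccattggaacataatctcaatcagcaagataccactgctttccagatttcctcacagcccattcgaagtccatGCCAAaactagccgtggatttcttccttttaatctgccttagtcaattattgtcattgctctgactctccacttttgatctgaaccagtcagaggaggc
Neurod1: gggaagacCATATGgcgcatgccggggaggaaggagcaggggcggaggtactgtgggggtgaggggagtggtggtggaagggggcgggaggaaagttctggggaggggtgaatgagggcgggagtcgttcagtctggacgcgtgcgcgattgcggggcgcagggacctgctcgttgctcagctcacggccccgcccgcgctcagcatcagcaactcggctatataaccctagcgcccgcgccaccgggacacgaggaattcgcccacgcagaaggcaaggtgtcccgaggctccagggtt
Slc1a6: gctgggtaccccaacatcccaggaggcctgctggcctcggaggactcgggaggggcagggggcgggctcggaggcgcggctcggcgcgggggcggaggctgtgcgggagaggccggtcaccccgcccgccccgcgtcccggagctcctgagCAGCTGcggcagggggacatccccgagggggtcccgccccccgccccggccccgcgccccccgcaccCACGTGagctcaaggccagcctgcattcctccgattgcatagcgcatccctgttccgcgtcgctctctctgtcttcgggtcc
Pcp2: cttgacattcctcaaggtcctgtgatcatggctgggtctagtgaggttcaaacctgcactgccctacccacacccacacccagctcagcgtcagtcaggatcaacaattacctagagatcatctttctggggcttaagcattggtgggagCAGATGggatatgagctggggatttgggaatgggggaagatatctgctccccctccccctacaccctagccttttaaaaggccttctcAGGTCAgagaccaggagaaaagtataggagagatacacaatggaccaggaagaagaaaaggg
Gdf10: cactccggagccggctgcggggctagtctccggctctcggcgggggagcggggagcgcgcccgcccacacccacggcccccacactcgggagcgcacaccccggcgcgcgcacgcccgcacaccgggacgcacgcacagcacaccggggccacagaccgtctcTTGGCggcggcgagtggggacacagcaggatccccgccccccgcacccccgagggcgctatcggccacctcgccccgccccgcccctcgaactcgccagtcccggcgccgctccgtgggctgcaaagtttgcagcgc

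In these windows Gabra6 had an NFI core 49 bases before the start, read on the opposite strand, and Gdf10 had one starting 87 bases before it. Pcp2 had an AGGTCA core 12 bases and an E box 100 bases before its start. Slc1a6 had E boxes 99 and 32 bases before the start, and Neurod1 had one 242 bases before it. No match overlapped another in these sequences. Promoters were found for 20 of the 28 genes. An E box stood in 14 of the 20 (70.0%) and in 72.1% of 27025 promoters of that length. AGGTCA stood in 5 (25%, against 16% of all) and TTGGC in 7 (35%, against 47.0% of all). A match is a description of letters and no evidence of binding.

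Each array carried the same scaling (mean signal of 299.9 to 300.0 over the middle 96% of values), and the median signal was 119.2 on knockout replicate 2 and between 121.4 and 130.2 on the others. Knockout replicate 2 matched its genotype label. Its main Ncam1 probe set read 208.7, against 276.2 and 327.4 in the other knockouts and 1217 to 1448 in wild-type animals. The ratio of 3' to 5' signal on this array was 0.811 for Gapdh, against 0.812 and 0.826 in the other knockouts and 0.768 to 0.798 in wild type. For actin it was 1.184, against 1.145 and 1.223 in the other knockouts and 1.084 to 1.196 in wild type. The part of RNA quality in the low signals was not tested.

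The 5 cerebellar markers Gabra6, Car8, Ppp1r17, En2 and Cbln1 all met the rule, but they were named from the same signals that chose the members, so this does not test the label. Of the 28 genes, 14 stood in a list of cerebellar or hindbrain genes: 5 of granule cells, 6 of Purkinje cells, 2 of Bergmann glia and 1 of isthmus and hindbrain patterning. The other 14 were in no list, so the label covers only part of the genes. A near-complete loss was seen for few of them. Signals of knockout replicate 2 near the bottom of the scale were not shown to be above background, so shares of a few percent are best read as upper limits. Only 4 of the 31 probe sets kept under 10% of the median signal of the other arrays, 7 kept under 25% and 28 kept under 50%. The median was 36.7%.

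**Figure D1:**
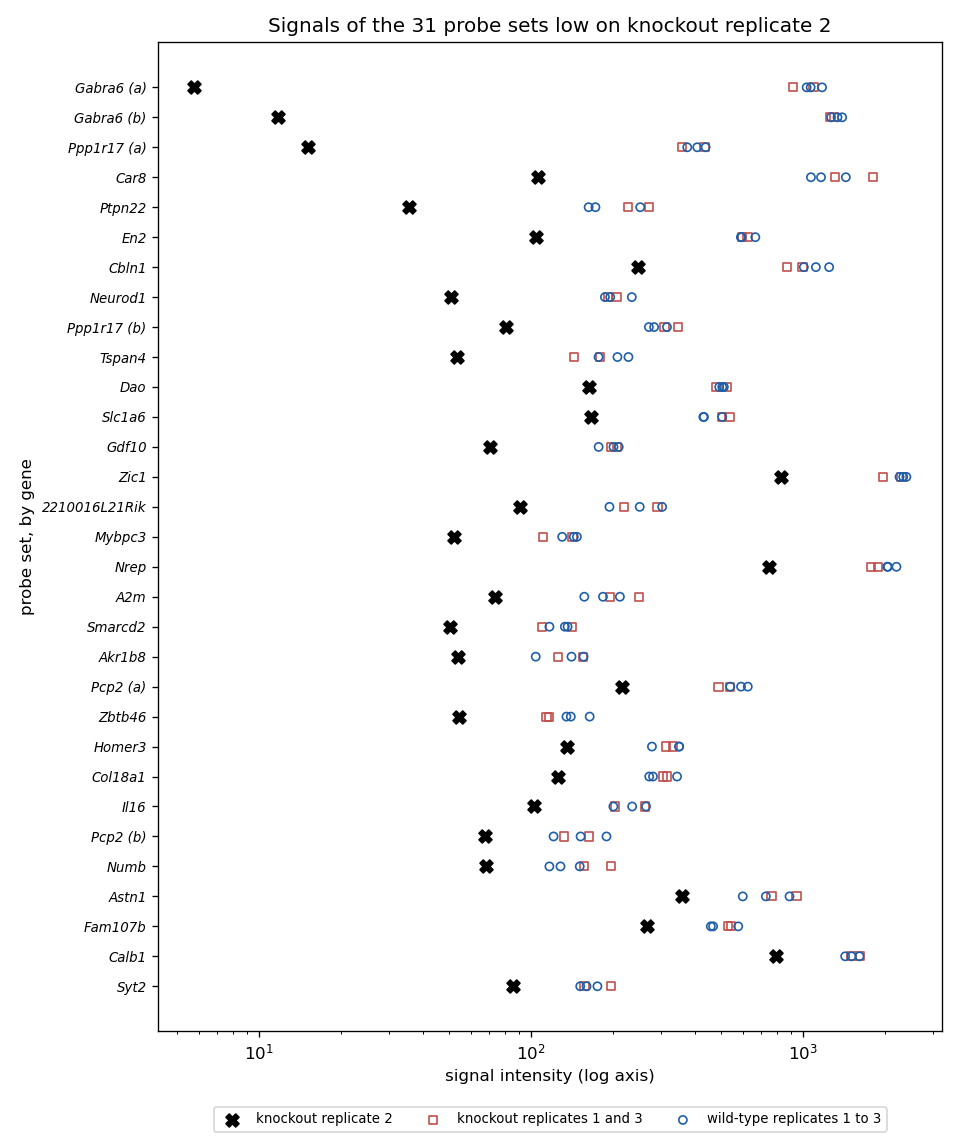
Signal intensity (log axis) of each of the 31 probe sets in each animal, ordered by the share of signal left on knockout replicate 2; letters tell 2 probe sets of a gene apart. The cross of knockout replicate 2 lies left of every other array for each probe set, as the rule requires, and the signals of Gabra6 there are 5.76 and 11.8.

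The granule cell genes are described first. Gabra6, the alpha6 subunit of the GABA-A receptor found mainly in granule cells of the cerebellum and cochlear nucleus, had 2 probe sets. The first read 916 in knockout replicate 1, 5.76 in replicate 2 and 1089 in replicate 3, and 1171, 1028 and 1064 in wild-type replicates 1, 2 and 3. The other read 1254, 11.8 and 1293 in the knockouts and 1335, 1264 and 1388 in the wild-type animals. Knockout replicate 2 stood below both groups, as the rule requires, at no more than 0.542% and 0.911% of the median of the other 5 arrays. Its signals were too low to tell from background, while the remaining 5 animals differed little (coefficient of variation 8.86% and 4.24%).

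Cbln1, cerebellin, is secreted by granule cells and joins their synapses to Purkinje cells. Its signal was 993, 246.1 and 873 in knockout replicates 1, 2 and 3 and 1244, 1111 and 1004 in wild-type replicates 1, 2 and 3. On knockout replicate 2 24.5% was left, and the other knockouts were both below every wild-type animal.

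Neurod1, a basic helix-loop-helix factor of granule cell differentiation, read 192, 50.8 and 206 in the knockouts against 234, 187 and 195 in wild type. Zic1, a zinc finger factor of the granule lineage that is also used in other brain regions, read 1963, 825 and 2293 against 2390.4, 2328 and 2256. Il16, whose neuronal form is made in granule cells, read 203, 102 and 262 against 264, 200.4 and 235. The shares left on knockout replicate 2 were 26%, 36.0% and 43.5% for Neurod1, Zic1 and Il16, so the 5 granule cell genes ran from under 1% to over 40%.

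Purkinje cell genes covered a similar range. Ppp1r17, a substrate of cGMP-dependent protein kinase found in Purkinje cells, read 358.5, 15.1 and 433 in the knockouts and 437, 374 and 407 in wild type by the probe set with more loss (3.70% left). Its other probe set read 346, 81.1 and 309 against 271, 283 and 315 (26.3% left). Both probe sets were chosen for being low on knockout replicate 2, and they differed in how much signal was left there. Car8, a carbonic anhydrase relative that binds the IP3 receptor of Purkinje cells, read 1311, 106 and 1803 against 1432, 1161 and 1066, with 8.06% left.

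The remaining Purkinje genes kept more. Slc1a6, the Purkinje cell glutamate transporter EAAT4, read 502, 166 and 535 in the knockouts against 429, 503 and 431 in wild type (33.1% left). Pcp2, a modulator of G protein signalling in Purkinje and retinal bipolar cells, read 488, 215 and 536 against 590.1, 538 and 625 by one probe set (40%) and 132, 67.6 and 163 against 189, 152 and 121 by the other (44.5%). Homer3, a scaffold of metabotropic glutamate receptors, read 314, 135 and 331 against 349, 278 and 349.7 (40.7%). Calb1, the calcium buffer calbindin, which forebrain neurons also use, read 1503, 794 and 1613 against 1607, 1502 and 1424 and kept 52.8%. Calb1 thus kept the most signal of the 6 Purkinje genes, and which of Ppp1r17 and Car8 kept the least depended on the Ppp1r17 probe set, of which the lower one is of a less specific kind.

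Glia and patterning genes were fewer. Gdf10, a secreted growth factor of Bergmann glia, read 196, 70.3 and 207 in the knockouts against 209.6, 201 and 177 in wild type (35.1% left). A2m, a protease inhibitor expressed in Bergmann glia, read 195, 73.3 and 248 against 183, 212 and 157 (37.6%). En2, the homeobox gene that sets up the midbrain and cerebellum and stays on in adult cerebellar neurons, read 594, 104 and 624 against 666, 592 and 589 (17.5%). Knockout replicate 2 was alone below 110 for En2, and the other knockouts lay within the wild-type range.

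Among the 14 genes in no list, Ptpn22, a tyrosine phosphatase best known from lymphocytes, had the least signal left. It read 226, 35.5 and 271 in the knockouts and 172, 162 and 251 in wild type (15.7% left). A second Ptpn22 probe set was below 10 on every array and too dim to compare. Dao, the D-amino acid oxidase of hindbrain and cerebellar glia, read 479, 164 and 522 against 503, 510.3 and 491 (32.5%). It had the smallest spread over the other 5 arrays of all members, a coefficient of variation of 3.34%.

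Nrep, a regeneration-associated neuronal protein, read 1879, 748 and 1771 in the knockouts against 2198, 2046 and 2033 in wild type (36.8% left). Astn1, astrotactin, which granule cells use to migrate along glia, read 944, 358 and 764 against 728, 889 and 599 (46.9%). Syt2, the calcium sensor of fast release that is prominent in hindbrain neurons, read 157, 86.0 and 197 against 175, 151 and 160 (53.9%), the largest share of any member. Its brighter probe set, which did not meet the rule, kept 72.5%.

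The others of these 14 were Tspan4, a tetraspanin (30% left), 2210016L21Rik (36.4%), Mybpc3, a myosin-binding protein (36.7%), Smarcd2, a chromatin remodelling subunit (38.0%), Akr1b8, an aldo-keto reductase (38.3%), Zbtb46, a zinc finger factor (40.3%), Col18a1, the collagen that gives rise to endostatin (41.1%), Numb, a Notch inhibitor (45.1%) and Fam107b (50.7%). Numb and Smarcd2 had brighter probe sets that lacked a drop of this size. Numb, low by a less specific probe set, read 236 on knockout replicate 2 by its other probe set and 186 to 255 elsewhere, which is 100% of the median. Smarcd2, also low by a less specific probe set, kept 77.2% and 84.8% by its brighter probe sets, which are of less specific kinds too. Its remaining probe set, dimmer at 41.0 to 127 on the other arrays, stood at 98.2%. The less specific kinds (_f_at, _s_at, _r_at, _g_at, _i_at) made up 6 of the 31 probe sets.

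The rule's limits fell among similar genes. Just inside the limit of 60% of the lowest other array stood Astn1 (59.8%), Fam107b (58.5%) and Numb (58.4%), and just outside stood Inpp5a, a phosphatase of inositol phosphates (60.1%), Usp3 and Mpp3 (both 60.3%). Just above the floor of 100 were Akr1b8, Smarcd2 and Mybpc3 (lowest other signal 103.9, 109.5 and 110.1). Just below it were Btbd17, Lmnb2 and Hs3st3a1 (96.5, 93.6 and 93.3), of which Lmnb2 and Hs3st3a1 kept 22.3% and 25% of the median on knockout replicate 2.

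The same rule was then applied to each array in turn. On knockout replicate 2 it took 31 of 5540 probe sets that reached the floor (0.56%). It took 4 on knockout replicate 1 (0.0726%), 19 on knockout replicate 3 (0.344%), and 6, 2 and 17 on wild-type replicates 1, 2 and 3 (0.109%, 0.0362% and 0.308%). The count was thus highest on knockout replicate 2, and knockout replicate 3 and wild-type replicate 3 also had more than 10. Of the 28 genes on knockout replicate 2, 14 were in a cerebellar or hindbrain list, and of the genes taken on each of the other 5 arrays 0 were. The lists were drawn up with earlier results of these data known, so this contrast is a description. The lowest share left on the other arrays was 11.2% to 20.8%.

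**Figure D2:**
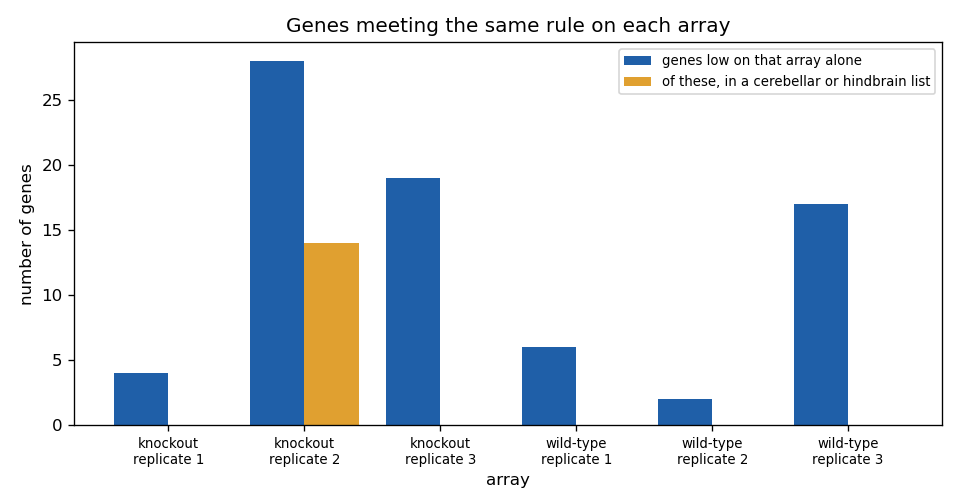
Number of genes that met the same rule on each array (blue) and how many of them belong to a cerebellar or hindbrain list (orange). Knockout replicate 2 has 28 genes with 14 in a list, and the other arrays have 2 to 19 genes with 0 in a list.

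The mirror rule, a signal of at least 100 that exceeded the highest of the other arrays by the same factor, took 2 of 5938 probe sets on knockout replicate 2 (0.0337%) and 0 to 15 on the others. The pair were Cap1, an actin regulator, at 269 against 76.3 to 100.3, and Neurod6, a factor of cortical and hippocampal neurons, at 209 against 19.0 to 103.

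Further genes of granule and Purkinje cells were low on this array without meeting the rule. Of 15 granule cell probe sets that reached the floor, 13 were lowest on knockout replicate 2 and 6 met the rule, with a median of 69.6% left. Of 24 Purkinje cell probe sets, 19 were lowest there and 8 met the rule, with a median of 57.9% left. Over all 5630 probe sets at the floor 20.1% were lowest on that array and the median was 100%. These counts include the members, which were chosen for being low there. Without them 7 of 9 granule cell probe sets were lowest on knockout replicate 2 (median 80.6%), and the same 9 had medians of 92.0% to 111% on the other arrays. Of 16 Purkinje cell probe sets 11 were lowest there (median 76.6%), and the same 16 had medians of 95.4% to 105% on the other arrays. Kcnd2 among the granule cell probe sets, and Pvalb and Inpp5a among the Purkinje cell ones, count more than once. The floor was set on the arrays other than knockout replicate 2, so these values, a comparison added after the data were seen, are a description.

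Outside the rule, Grin2c, the NMDA receptor subunit of mature granule cells, kept 57.2% and had been left out by its symbol and its ratio alike. Reln, the migration signal reelin, kept 69.6%, Calb2, calretinin, 73.0%, Tiam1, a Rac activator, 81.5%, Gabrd, the delta subunit that pairs with alpha6, 85.4%, and the potassium channel Kcnd2 82.8% and 97.4% by 2 probe sets. Among Purkinje genes, Atp2a3, a calcium pump of the endoplasmic reticulum, kept 38.4% and missed the rule because wild-type replicate 2 read 323 where the other 4 arrays read 524 to 579. Rgs8, a regulator of G protein signalling, kept 55.1% and Pvalb, parvalbumin, 57.8% and 56.3% by 2 probe sets, all 3 of less specific kinds, and Inpp5a 58.0% and 72.5%. Aldoc, an aldolase shared with astrocytes, kept 88.8%, Nefh, a neurofilament, 95.4%, and the channel Kcnma1 stood at 117%. The shares left thus ran from 0.542% to 97.4% in the granule cell list and from 3.70% to 117% in the Purkinje cell list.

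Other cerebellar cells gave few measurable genes. Of the interneuron and unipolar brush cell list only Kit (72.5%) and Nxph1 (79.4%) reached the floor. Of the Bergmann glia list, beside Gdf10 and A2m, Hopx kept 68.4%, Fabp7 89.4% and the glutamate receptor subunit Gria1 79.3% and 105% by 2 probe sets.

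Few hindbrain genes outside the cerebellum could be measured. The medians were 86.0% for the patterning list and 95.4% for the brainstem list. Of the patterning list En2 alone of 6 probe sets met the rule. The homeobox genes Hoxb6 and Hoxb7, which mark the hindbrain and spinal cord, stood at 74.7% and 86.8%, and Wnt1 at 85.2%. Hoxb7 and Wnt1 were not lowest on knockout replicate 2, at 100.8% and 119.3% of the lowest other array. Outside the rule 2 of 5 patterning probe sets were lowest on knockout replicate 2, and 2 of 5 on wild-type replicate 2. Hoxa4 (93.2%) and Hoxb8 (96.8%) were read by less specific probe sets, and the genes' other probe sets were dim, below 60 on every array, so these values may not report the genes. Of 5 brainstem probe sets 0 met the rule. Glra1, the glycine receptor subunit of brainstem and spinal cord, read 178, 209 and 248.6 in the knockouts and 169, 193 and 183 in wild type, with knockout replicate 2 above all wild-type animals (114%). The neurofilament Nefm stood at 126%, Gata2 at 87.1% and Sncg, synuclein gamma, at 79.9% by a less specific probe set. Only 6 of the 29 patterning genes and 5 of the 13 brainstem genes on the array reached the floor.

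**Figure D3:**
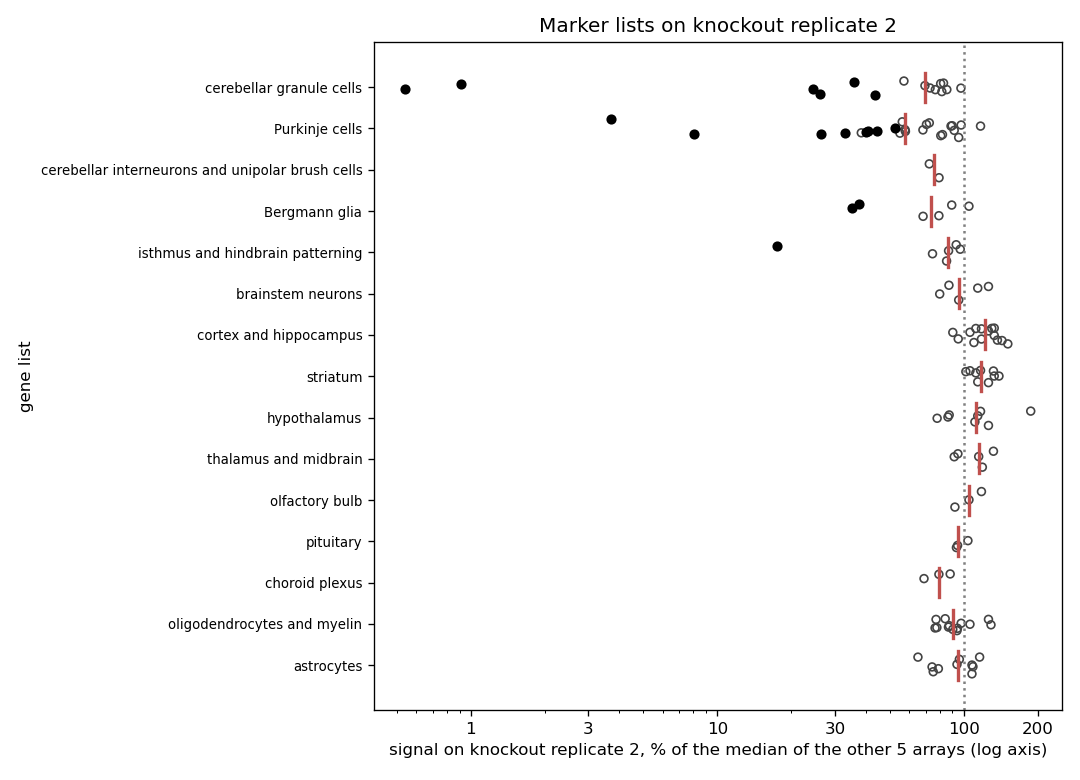
Signal on knockout replicate 2 as a percentage of the median of the other 5 arrays (log axis) for every probe set of each marker list that reached a signal of 100 on those arrays. Filled points met the rule, red bars are list medians and the dotted line is 100%; granule and Purkinje lists spread to the left (medians 69.6% and 57.9%) and cortical and striatal lists lie to the right (122% and 117%).

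The cortical and striatal lists lay on the other side. Of 14 cortical and hippocampal probe sets 10 were highest on knockout replicate 2 (median 122%), and of 9 striatal probe sets 7 were (median 117%), where 20.1% of all probe sets were. The 14 probe sets were of 10 genes and the 9 of 6 genes, so Mef2c, Foxp1 and Penk count more than once. Some were highest by little, such as Drd2 at 257 against at most 256 elsewhere. The hypothalamus list had 3 of 8 highest and 2 of 8 lowest (median 112%, range 78.0% to 187%), and the olfactory bulb list 1 of 3 highest (median 105%). The thalamus and midbrain list had 1 of 5 highest and 1 of 5 lowest (median 115%). The cortical list also moved on another array, with 8 of 14 probe sets lowest on knockout replicate 3 (median 87.2%). Tbr1, a factor of cortical projection neurons, read 1034, 1482 and 891 in the knockouts against 1102, 1051 and 818 in wild type. Tac1, the substance P precursor, read 391, 506 and 360.4 against 363, 387 and 342. Because every array was scaled to the same mean, a signal here is a share of the sample's total.

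Other cell types were checked by their marker lists. The summed signal of the choroid plexus list (3 probe sets) was 1596 on knockout replicate 2 against 2223 and 2477 in the other knockouts and 2005 to 2345 in wild type, and that of the astrocyte list (10 probe sets) 9587 against 9887 and 10133 and 9674 to 10965. The choroid transport protein Ttr kept 69.0%, and the astrocyte water channel Aqp4 65.2% and 78.9% by 2 probe sets. The myelin list (13 probe sets) summed to 23191 against 22908 and 21102 in the other knockouts and 25738 to 26488 in wild type. The pituitary list (3 probe sets) summed to 868, against 949.7 to 12254 in the other knockouts and 706 to 821 in wild type. Every marker of these 4 lists that reached the floor kept at least 65.2% on knockout replicate 2. There 2 of 3 choroid plexus probe sets were lowest (median 79.3%), 4 of 10 astrocyte (94.9%), 1 of 13 myelin (90.3%) and 0 of 3 pituitary (94.4%). The choroid plexus median was thus close to those of granule and Purkinje probe sets outside the rule (80.6% and 76.6%). The part of these cells in the low signals was not tested.

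The GABA-A receptor subunits can be compared within 1 family. Of 7 subunit genes that reached the floor Gabra6 alone met the rule. Gabrb2 stood at 78.1%, Gabrd at 85.4%, Gabra2 at 98.1%, Gabrg1 at 107%, Gabrb1 at 109% and Gabra3 at 124%. The median of these 6 probe sets was 103% on knockout replicate 2 and 91.3% to 105% on the other arrays.

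The genotype comparison of the members was then made without knockout replicate 2, with knockout replicates 1 and 3 (n = 2) against the 3 wild-type animals (n = 3). The rule used these arrays only through their lowest value. All 31 probe sets passed the filter on dim values. None of them passed in limma at an adjusted p under 0.05 (adjusted p 0.479 to 0.992), where 0.0134% of 7453 probe sets were lower and 0.0134% higher. At an unadjusted p under 0.05 in limma 2 were lower and 1 higher, near the background of 5.07% and 4.47%. The median log2 difference was -0.01, with 17 negative and 14 positive values and a range of -0.31 to 0.38, and the median over all probe sets was 0.01. The median standard error was 0.13, which is larger than the differences of most members. Changes that small were not detectable with these animals, and larger ones could be missed too. The largest difference, that of Numb at 0.38 ± 0.16 (SE), had an adjusted p of 0.521 in limma.

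The 5 members with the lowest p were mixed in direction. Nrep had signals of 1825 ± 76.1 (SD, n = 2) in knockout and 2093 ± 91.5 (SD, n = 3) in wild-type brains, a log2 difference of -0.20 ± 0.07 (SE; adjusted p = 0.479 in limma across all probe sets). Cbln1 had 933.0 ± 84.4 against 1120 ± 120 (log2 -0.26 ± 0.11, adjusted p = 0.513 in limma). Numb, by its less specific probe set, had 176 ± 27.8 against 132 ± 17.4 (0.38 ± 0.16, adjusted p = 0.521). Car8 had 0.34 ± 0.16 and Zbtb46 -0.30 ± 0.15. Nrep, Cbln1, Zbtb46 and the brighter Pcp2 probe set were lower in both knockouts than in any wild-type animal and Numb was higher in both. That is 4 and 1 of 31, where 13.9% of all probe sets were lower and 13.9% higher without overlap. Gabra6 differed by -0.12 ± 0.10 and -0.06 ± 0.07, En2 by -0.01 ± 0.09, Ppp1r17 by -0.04 ± 0.12 and 0.17 ± 0.11, and Dao by 0.00 ± 0.09, all within the spread of the animals.

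**Figure D4:**
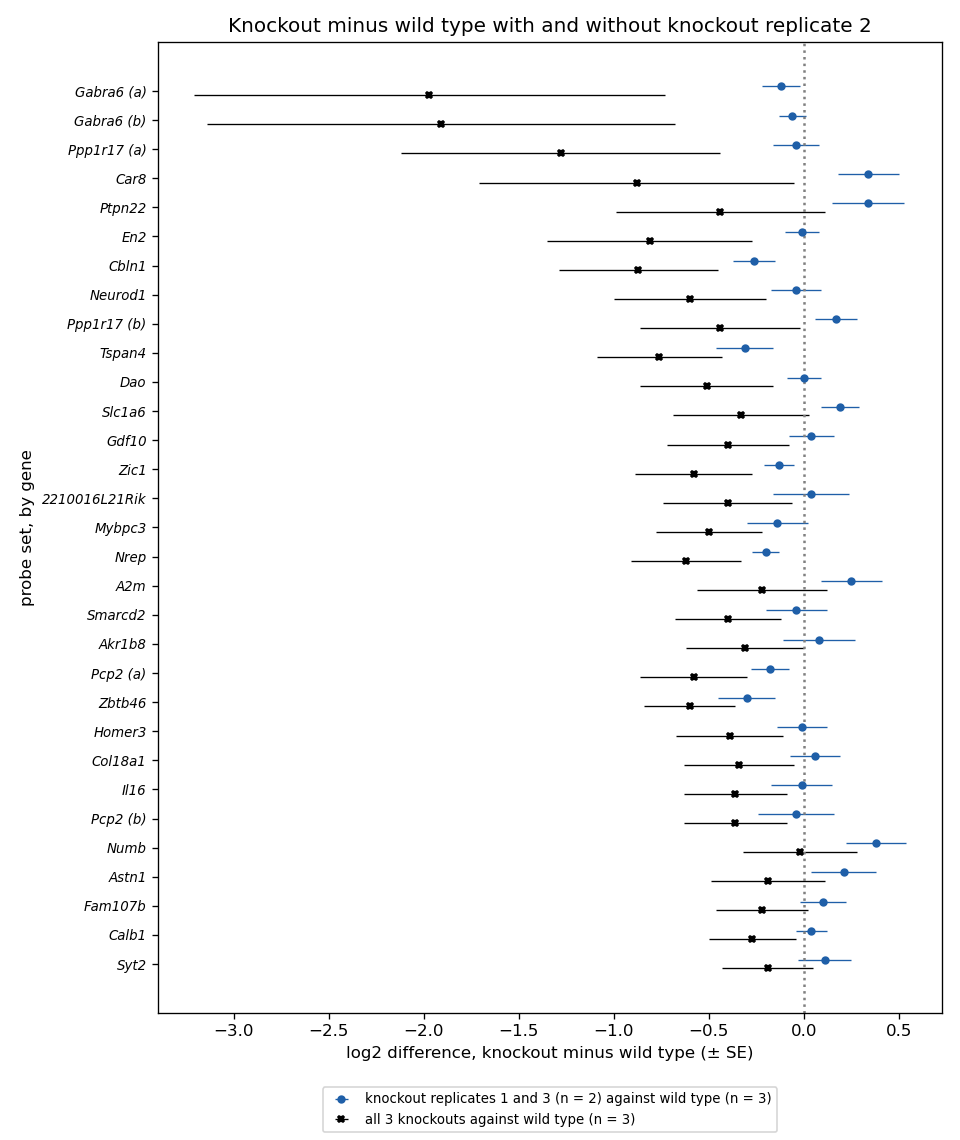
Log2 difference, knockout minus wild type, with its standard error from limma for each member, with all 3 knockouts (black crosses) and without knockout replicate 2 (blue circles). Without that array the values lie between -0.31 and 0.38 and their median is -0.01, and with it all 31 are negative with a median of -0.44.

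With all 6 arrays every member had a negative difference, a direction that the choice of members favours and that supports nothing. The median was -0.44 and the range -1.97 to -0.02. None passed in limma (adjusted p 0.719 to 0.994), with 0.0134% of all probe sets called lower. At an unadjusted p under 0.05 in limma 2 members were lower and 0 higher, against 3.68% and 3.26% of all probe sets. Without overlap between the groups 4 were lower and 0 higher, against 6.8% and 6.08%. Gabra6 had the largest differences and also the largest standard errors, -1.97 ± 1.24 and -1.91 ± 1.23, against -0.12 ± 0.10 and -0.06 ± 0.07 without knockout replicate 2. The rule chose members for being low on knockout replicate 2, so the larger differences with that array were built in. Some members kept a negative difference without it, such as Zbtb46 (-0.30, against -0.60 with it) and Tspan4 (-0.31, against -0.76). Without it 17 of the 31 were negative and 14 positive.

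The spread among the other 5 arrays was close to that of other genes. The median coefficient of variation was 9.98% for the members and 9.44% for all probe sets at the floor, with Dao (3.34%) and Ptpn22 (22.1%) at the ends. The median signal over the members, as a percentage of the median of those 5 arrays, was 98.3% and 103% in knockout replicates 1 and 3 and 105%, 100% and 100% in wild-type replicates 1, 2 and 3, against 36.7% in knockout replicate 2. Each of the 5 arrays is part of that median, and the rule chose the low values of knockout replicate 2, so this contrast was built in. The 28 genes were spread over 14 chromosomes, with at most 4 on one of them.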

How the data were processed

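Per the labels' protocols, RNA from 6 mouse brains was measured on Affymetrix arrays with 1 colour. The authors deposited linear signal intensities, 1 per probe set, and GCOS 1.4 is named in the submitters' processing notes. For the algorithm and its settings, nothing was given in the sources used here. Detection calls were not used. Control entries (66 of 12488) were set aside. Of 12422 probe sets, 10833 had 1 gene symbol, taken from a platform annotation that may be dated, and 176 of these had a left-out symbol start.

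Shares left are the signal on knockout replicate 2 over the median of the other 5 arrays. Groups were compared on a log2 scale after adding 16 to each signal, which understates changes of dim genes, with limma 3.58.1 in R 4.3.3 (intensity trend, two-sided, Benjamini-Hochberg adjustment) over the 7453 probe sets at or above the 40th percentile of the mean. The procedure was tested on simulated data. Figures were drawn with matplotlib 3.10.9.

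Members and gene lists were chosen with earlier results of these data known. The genes named were the 5 markers, members in a list, the 20 with least signal left, the 3 on each side of the limit, the 5 with the lowest p, up to 6 genes of each cerebellar or hindbrain list outside the rule with the highest median signal, and the GABA-A subunits. Col18a1, Syt2, Atp2a3, Cap1, Neurod6, Tbr1, Tac1, Ttr and Aqp4 and the genes near the floor were named after their values were seen. Alternatives were other limits, floors, normalisations, pseudocounts, filters and probe set kinds, the median in place of the lowest array, genes in place of probe sets, age, a replicate block and each array left out.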

Additional observations from a re-analysis of the deposited data

How the results depend on the processing

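The number of low probe sets on knockout replicate 2 (31) was 63 at a limit of 0.7, 50 at a floor of 50, 18 at a floor of 200 and 105 with the median of the other arrays in place of their lowest value, and 34 to 43 when 1 of the other arrays was left out. At each of these limits and floors, and with the median as reference, the count on knockout replicate 2 was the highest of the 6 arrays. Knockout replicate 3 came next, with 34 at a limit of 0.7 and 44 at a floor of 50. It had 8 at a floor of 200 and 78 with the median as reference. The margin was thus small at a floor of 50. With 1 array left out, only knockout replicate 2 was counted. The count of the mirror rule (2), whose alternatives were added after the data were seen, was 10 at a limit of 0.7, 12 at a floor of 50, 4 with quantile normalised signals, 4 with signals divided by the median, 40 with the median as reference and 3 to 5 with 1 array left out.

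Members called in limma stayed at 0 in both directions under every alternative run. Without knockout replicate 2, 1 probe set of all was lower and 1 higher; with a replicate block these were 3 and 2. The higher count was 0 with median centring, without the filter and without the intensity trend, and with 1 more array left out the counts were 1 to 4 lower and 0 to 3 higher, where the spread of a lone knockout is taken from the wild-type group. With all 6 arrays the higher count (1) was 0 with quantile normalisation, median centring, no filter or no trend, and 0 to 1 with 1 array left out, and the lower count was 1 to 3. The cause of these changes was not tested. Replicate numbers were not used as pairs in the main comparisons. Same-numbered deviations correlated at 0.01, 0.15 and 0.20. Knockout replicates 2 and 3 correlated best with the wild-type animal of their own number, and knockout replicate 1 with wild-type replicate 2 (0.08). Replicate 3 was the 3-month animal of each group, so number and age cannot be told apart there. The members' counts at an unadjusted p under 0.05 without knockout replicate 2 ran from 0 to 4 lower and 0 to 3 higher, and were 0 lower without wild-type replicate 1.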
